A study of Mus musculus with 10 samples.

Results

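The genes described are 10 genes of the chondrocyte, the cell that builds and maintains cartilage. They are the transcription factors Sox9, Sox5 and Sox6, and 7 genes that mark stages of chondrocyte differentiation, Matn1, Cnmd, Snorc, Chad, Cytl1, Ucma and Col10a1. They were chosen by name, and each is represented by the probe set with the highest mean over 10 arrays among those whose platform annotation names that gene alone. All 10 genes had such a probe set, out of 18128 genes, and 22 of 39993 probe sets named them. The tissue was left hind leg synovium, taken from 10 male DBA/1J mice that were bought at 5 weeks of age and labelled as 8 weeks old. All 10 had collagen antibody-induced arthritis, raised with 1 mg of an antibody against type II collagen on day 8 and lipopolysaccharide (25 µg) on day 11, and were killed on day 12. The vehicle group of 5 mice received corn oil by mouth, and the maslinic acid group of 5 received 200 mg of the olive triterpene maslinic acid per kg of body weight each day in corn oil. The 5 mice of each group were selected from larger groups by a criterion that is not given in the sources used here, and the untreated mice of the study are not analysed here, so a level in a healthy joint is not part of any comparison.

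SOX9 is the transcription factor that starts and maintains the chondrocyte programme, and it switches on the genes of type II collagen and aggrecan. SOX5 and SOX6, which are close relatives of each other, act with it at those genes. As chondrocytes of a growth plate mature they pass from dividing cells, which make matrilin-1 and chondromodulin, to hypertrophic cells, which make type X collagen. Synovium itself is a connective tissue lined by fibroblasts and macrophages, and it borders cartilage and bone in the joint. The labels describe synovium cleaned of muscle and skin, and do not say whether cartilage was present in the samples. In bulk tissue of this kind, fewer cells of a type and less RNA per cell cannot be told apart.

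Each mouse gave 1 Affymetrix array, and precision is limited by how many arrays there are. The deposited values have a median of 6.74 and look like log2 intensities, but the arrays differ by so little (median SD of a probe set 6.68e-06) that differences cannot be read as log2 fold changes, and their scale remains unknown. Values are therefore given in steps, where 1 step is 1e-06 of a deposited unit, the last decimal, counted from the lowest of the 10 arrays for that probe set. Group differences are given as Hedges' g, the maslinic acid mean less the vehicle mean divided by the SD within groups. Steps of one gene cannot be set against steps of another. The middle value of a whole array also moved, over 272 steps from the lowest to the highest array. A typical probe set moved far less (median SD 6.68e-06), so this was not a shift shared by all probe sets. Of the 10 genes, 3 (Sox9, Sox5 and Matn1) ranged over less than 272 steps. Centring arrays on their medians subtracts a wider spread than the range of these 3, so their centred values cannot decide whether a result holds. Quantile normalization also changes each array, by amounts that were not set against the range of a gene. Its values alone therefore cannot decide this either. Vehicle replicates 3 and 5 had array weights of 0.458 and 0.339 in limma, against 0.857 to 2.01 for the other arrays, and results are given with and without them where they decide a value. Genes that mark synovial fibroblasts and lining were all measured, 10 of 10, among them the lubricin gene Prg4 (mean deposited value 11.55). Measured means only that a probe set names the gene alone. The same held for 10 of 10 muscle genes, among them the myosin gene Myh4 (12.60), so these values do not show how pure the synovium was. The files used here hold no detection call, so presence or absence cannot be read from them.

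Maslinic acid was compared with vehicle to ask whether the chondrocyte programme differed in the arthritic joint. None of the 10 genes passed the test: 0 had an adjusted p under 0.05 in limma over all probe sets, where 0 of all 18128 genes did. At an unadjusted p under 0.05 there were 2, Ucma and Sox9, both higher with maslinic acid, where 8.83% of genes and 9.04% of probe sets reached that p in either direction. The share of genes higher at that p was 4.29%, and it was 6.7% among the 6743 genes with 10 distinct values, as all 10 genes here have. All 10 means were higher with maslinic acid, against 47.9% of all genes and 60.2% of genes with 10 distinct values. The median g of the 10 was 0.66, beside 0.23 over genes with 10 distinct values. In 0 of the 10 did the groups not overlap, where the share over all genes was 0.645% higher and 1.38% in either direction, and 0.89% higher among genes with 10 distinct values.

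**Figure D1:**
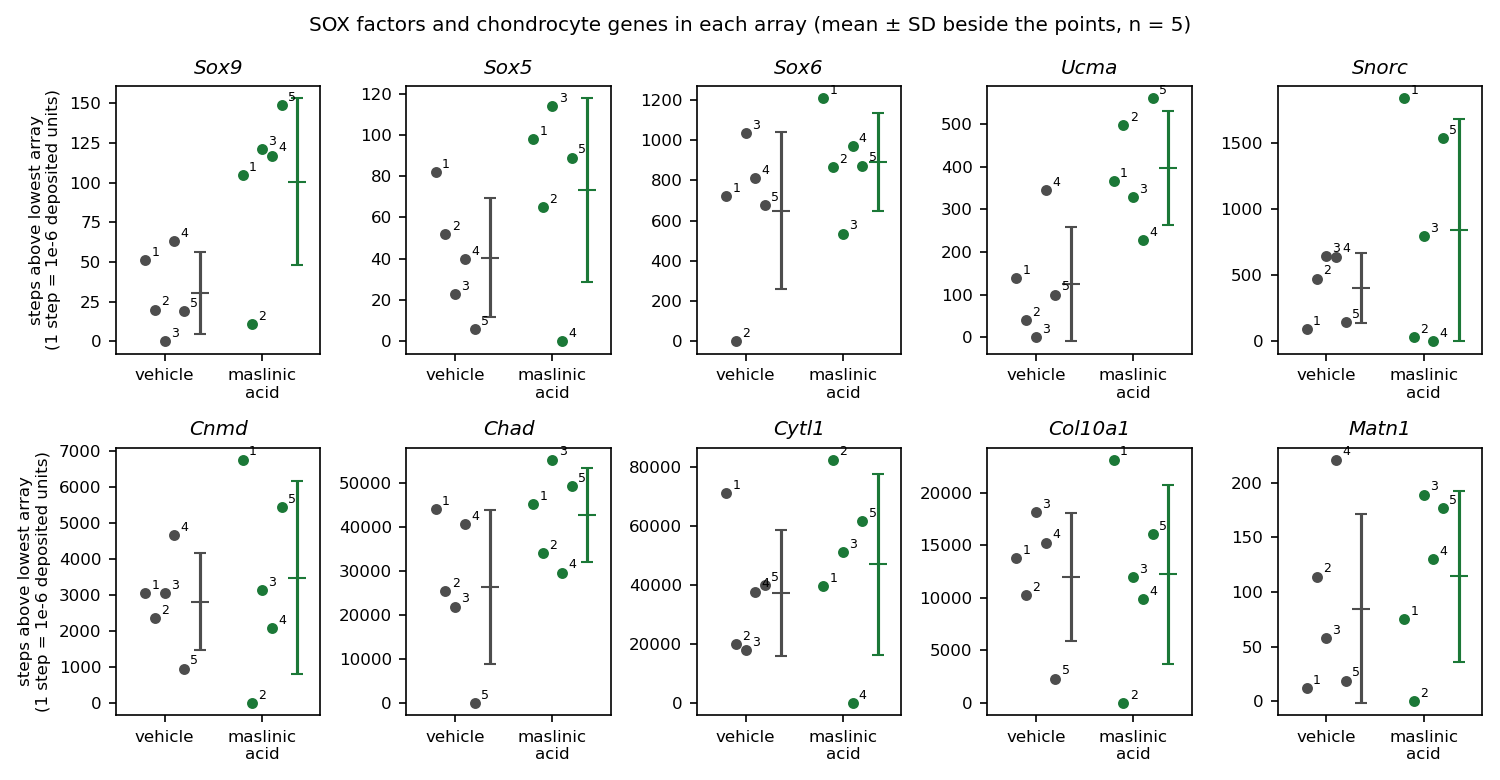
Values of the 10 genes in each array, in steps of 1e-06 deposited units above the lowest array, with mean ± SD (n = 5) beside the points and the replicate number at each point. Grey points are vehicle and green points maslinic acid, and the groups overlap in every panel.

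Among the SOX genes, Sox9 had the largest g. In vehicle replicates 1 to 5 it stood at 51, 20, 0, 63 and 19 steps, and in maslinic acid replicates 1 to 5 at 105, 11, 121, 117 and 149. Maslinic acid replicate 2 lay among the vehicle arrays, and the other 4 lay above all of them. The means were 30.6 ± 25.7 and 101 ± 52.6 steps (SD, n = 5 each), with g = 1.53 (95% CI 0.15 to 2.83). The unadjusted limma p was 0.0235, the exact permutation p was 0.0397 (two-sided) and the adjusted p was 0.496. A second Sox9 probe set ranged over 133 steps with g = 1.52, and the last over only 6 steps with g = 0.41. Without vehicle replicates 3 and 5 the g of Sox9 was 1.08 (exact permutation p = 0.125), without maslinic acid replicate 2 it was 3.58, with each array centred on its median it was 0.42, and after quantile normalization it was -0.10.

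Sox5 stood at 82, 52, 23, 40 and 6 steps in the vehicle arrays and at 98, 65, 114, 0 and 89 in the maslinic acid arrays. Here replicate 4, not replicate 2, was the low array of the maslinic acid group. The g was 0.78 (95% CI -0.42 to 1.94, exact p = 0.198, limma adjusted p = 0.678), and it was -0.02 with centred arrays, 0.34 without vehicle replicates 3 and 5 and 1.76 without maslinic acid replicate 4. The other 6 probe sets of Sox5 ranged over 4 to 21 steps, little above the last decimal, and 2 of them had lower means with maslinic acid.

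Sox6, whose probe set belongs to a type that may share probes with other sequences, stood at 723, 0, 1036, 810 and 678 steps in the vehicle arrays and at 1208, 864, 535, 970 and 873 in the maslinic acid arrays. Vehicle replicate 2 was the lowest and maslinic acid replicate 1 the highest, and the remaining arrays overlapped. The g was 0.67 (95% CI -0.51 to 1.82, exact p = 0.31, limma adjusted p = 0.718), and it was 0.07 after quantile normalization, 0.33 without vehicle replicate 2 and 1.02 without vehicle replicates 3 and 5. The other 3 Sox6 probe sets gave g of 0.55, 0.62 and 0.43, and followed the first across arrays with r of 0.87, 0.96 and 0.58.

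**Figure D2:**
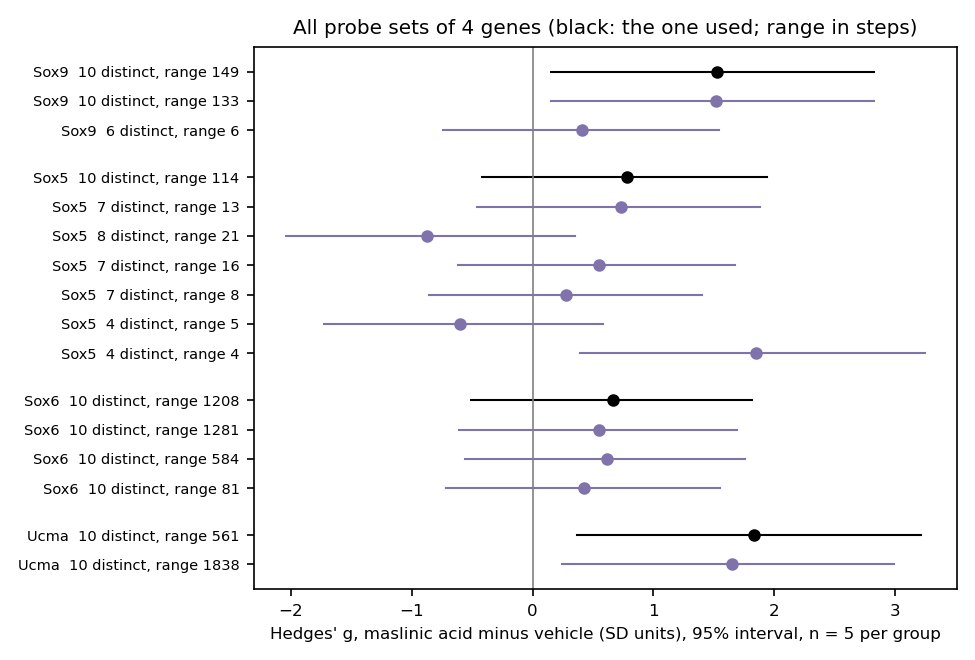
Hedges' g with its 95% interval (n = 5 per group) for all probe sets of Sox9, Sox5, Sox6 and Ucma, each labelled with its number of distinct values over 10 arrays and its range in steps. The probe set used is black, the intervals of 2 Sox9 sets and both Ucma sets lie above 0, and the Sox5 set of 4 distinct values that also lies above 0 ranges over 4 steps.

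Ucma, a small secreted protein that is rich in carboxylated glutamate and is made in growth plate and other cartilage, had the largest g of the 10. It stood at 138, 40, 0, 345 and 100 steps in the vehicle arrays and at 366, 498, 328, 228 and 561 in the maslinic acid arrays. The groups overlapped only through vehicle replicate 4, which lay above maslinic acid replicates 3 and 4. The means were 125 ± 134 and 396 ± 134 steps (SD, n = 5 each), with g = 1.83 (95% CI 0.37 to 3.22). The unadjusted limma p was 0.00988, the exact permutation p was 0.0238 and the adjusted p was 0.483. The second Ucma probe set followed the first across arrays (r = 0.97) and gave g = 1.65. Without vehicle replicates 3 and 5 the g was 1.36 (exact permutation p = 0.107) and with centred arrays 1.49, but after quantile normalization it was 0.05.

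Chad encodes chondroadherin, a leucine-rich repeat protein of cartilage matrix that binds chondrocytes. It stood at 44100, 25420, 21940, 40746 and 0 steps in the vehicle arrays and at 45316, 34039, 55399, 29692 and 49367 in the maslinic acid arrays. All 5 maslinic acid arrays lay above the vehicle median, and vehicle replicate 5 stood lowest by a wide gap. The g was 1.01 (95% CI -0.23 to 2.21, exact p = 0.111, limma adjusted p = 0.604), with 1.00 after quantile normalization and 0.50 without vehicle replicates 3 and 5. Cytl1, a cytokine-like secreted protein of cartilage, stood at 71263, 20048, 17888, 37782 and 40098 steps in the vehicle arrays and at 39640, 82584, 51138, 0 and 61652 in the maslinic acid arrays. The highest and the lowest Cytl1 arrays were thus both in the maslinic acid group, and its g was 0.33 (95% CI -0.81 to 1.45), 0.94 without maslinic acid replicate 4, 0.03 without maslinic acid replicate 2 and 0.12 without vehicle replicates 3 and 5.

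The genes of proliferating and maturing cartilage showed no detectable group difference. Matn1, the cartilage matrix protein matrilin-1, stood at 12, 114, 58, 221 and 19 steps in the vehicle arrays and at 75, 0, 189, 130 and 177 in the maslinic acid arrays (g = 0.32, 95% CI -0.82 to 1.44, turning to -0.21 after quantile normalization and -0.05 with centred arrays, and running from 0.12 without vehicle replicate 1 to 0.85 without vehicle replicate 4). Both groups spread over nearly the whole range. Snorc, a transmembrane proteoglycan of cartilage, stood at 91, 474, 645, 641 and 147 steps in the vehicle arrays and at 1842, 32, 798, 0 and 1540 in the maslinic acid arrays (g = 0.64, 95% CI -0.54 to 1.78, with 0.33 without maslinic acid replicate 1, 1.02 without maslinic acid replicate 4 and 1.01 after quantile normalization). The maslinic acid arrays of Snorc held the 3 highest and the 2 lowest values. Cnmd, chondromodulin, which inhibits blood vessel growth into cartilage, stood at 3052, 2352, 3050, 4675 and 955 steps in the vehicle arrays and at 6763, 0, 3147, 2074 and 5433 in the maslinic acid arrays (g = 0.28, 95% CI -0.85 to 1.40, with -0.08 without maslinic acid replicate 1 and 0.79 without maslinic acid replicate 2). Col10a1, type X collagen of hypertrophic chondrocytes, stood at 13753, 10294, 18191, 15265 and 2309 steps in the vehicle arrays and at 23154, 0, 11944, 9897 and 16108 in the maslinic acid arrays. Its means were 11962 ± 6101 and 12221 ± 8507 steps (SD, n = 5 each), with g = 0.03 (95% CI -1.09 to 1.15, exact p = 0.968). The upper ends of these 4 intervals lie at 1.15 SD or higher, so differences of that size are within them.

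**Figure D3:**
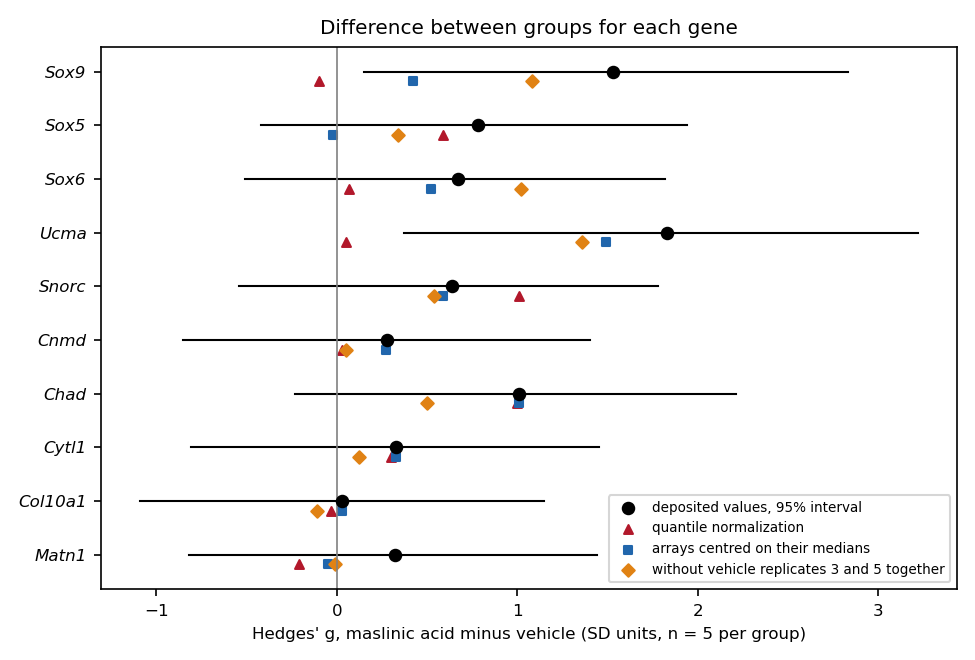
Hedges' g of maslinic acid minus vehicle for the 10 genes (black, 95% interval, n = 5 per group), with values from quantile normalization, from median-centred arrays and without vehicle replicates 3 and 5. Sox9 goes from 1.53 to -0.10 and Ucma from 1.83 to 0.05 after quantile normalization, while Chad stays at 1.00.

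The 10 genes were next compared with each other across arrays. Over the 45 pairs the median r was 0.42 (from -0.28 to 0.91, n = 10 arrays), and 39 pairs had r above 0. For comparison, the median r of each of the 10 genes with the other genes of 10 distinct values lay between 0.00 and 0.22. After Benjamini-Hochberg adjustment over the 45 pairs, 3 had a permutation p under 0.05 for Pearson's r and 2 for Spearman's rho. Cnmd and Col10a1 were the most alike, with r = 0.91 (permutation p = 0.00026, adjusted 0.0108) and rho = 0.87 (permutation p = 0.00208, adjusted 0.0468). Their r was 0.79 without the 2 arrays farthest from the Cnmd median (maslinic acid replicates 1 and 2), 0.96 without vehicle replicates 3 and 5, 0.92 with group means removed, 0.85 after quantile normalization and 0.92 with centred arrays. Snorc and Cnmd had r = 0.88 (permutation p = 0.00048, adjusted 0.0108) and rho = 0.83 (permutation p = 0.00425, adjusted 0.0637), with r = 0.68 without maslinic acid replicates 1 and 5, the arrays farthest from the Snorc median. Snorc and Col10a1 had r = 0.75 and rho = 0.79, which did not pass (adjusted permutation p = 0.165 and 0.098), with r = 0.62 without the same 2 arrays.

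Sox5 and Chad formed another pair, with r = 0.83 (permutation p = 0.00219, adjusted 0.0328) and rho = 0.87 (permutation p = 0.00204, adjusted 0.0468), and r = 0.88 without maslinic acid replicates 3 and 4, which lie farthest from the Sox5 median. That relation was at r = 0.05 with arrays centred on their medians and at 0.68 after quantile normalization, so it changes with the scaling. The centred value cannot decide on the relation, since the medians moved over 272 steps and Sox5 over 114. As deposited, Chad had r above 0.8 with 7.51% of 6742 genes and Sox5 with 1.45%. Such an r with Chad was therefore not particular to Sox5. Cytl1 had a median r of 0.04 with the other 9 (0.62 with Sox5 and 0.57 with Ucma, but -0.25 with Col10a1 and -0.28 with Matn1). The median r of Sox6 with the other 9 was 0.25, with 0.37 the highest. As deposited, the 3 SOX genes were not closely alike: Sox9 and Sox5 had r = 0.45, Sox9 and Sox6 0.25, and Sox5 and Sox6 -0.04 (rho = 0.47, 0.04 and -0.08), and none passed (permutation p = 0.186, 0.514 and 0.915 for r and 0.18, 0.918 and 0.839 for rho, adjusted 0.399, 0.643 and 0.958 for r). Without the 2 arrays farthest from the first gene's median these r were 0.11, 0.42 and 0.24. Other scalings gave other values, 0.76, 0.53 and 0.38 with centred arrays and 0.35, 0.78 and 0.47 after quantile normalization. Centring subtracts the same medians from every gene, and these moved over more steps than Sox9 or Sox5 did. The centred r of these pairs therefore cannot decide how alike the genes were.

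**Figure D4:**
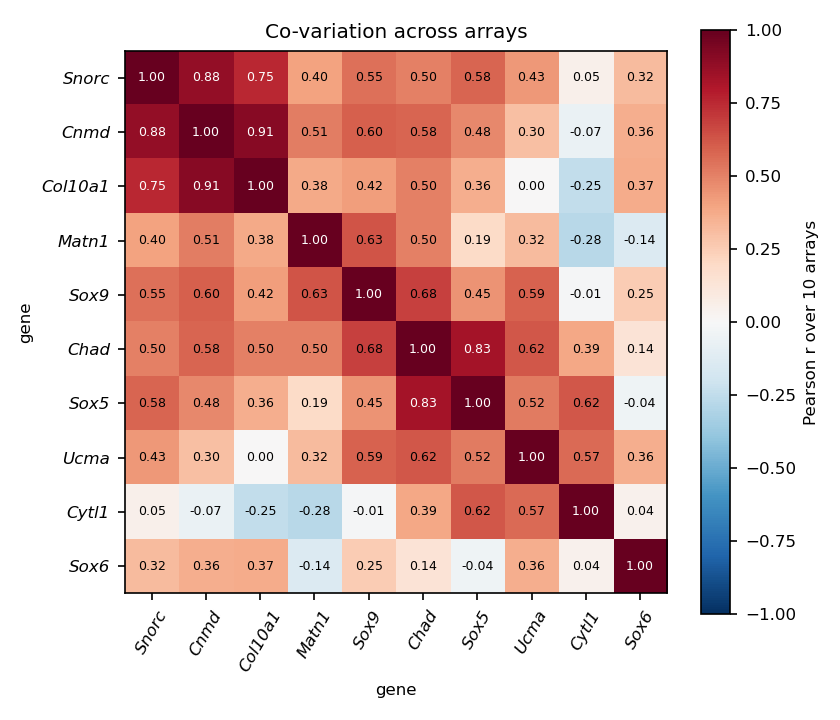
Pearson r between the 10 genes over 10 arrays, with each value printed in its cell. Snorc, Cnmd and Col10a1 form a block with r from 0.75 to 0.91, Cytl1 runs from -0.28 to 0.62 and Sox6 from -0.14 to 0.37.

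The stretch before a transcription start listed by RefSeq is shown for the 4 genes of the pairs Cnmd with Col10a1 and Sox5 with Chad, so that their sequence can be read beside their co-variation. Each is 250 bases long, 5′ to 3′ on the gene's own strand, from RefSeq with the table's build, GRCm38.p6. Capitals mark the letters ACAAT or its reverse complement ATTGT, a form of the core that SOX proteins bind, and the letters TATAAA on the gene's strand. Other forms of that core were not searched, so a window without capitals may still hold them. Cnmd lies at chr14:79662184-79662433 (minus strand), Col10a1 at chr10:34389731-34389980 (plus), Sox5 at chr6:143947107-143947356 (minus) and Chad at chr11:94564797-94565046 (plus). The Sox5 window lies inside the annotated span of the gene, so its start is not the outermost one, and the Cnmd window overlaps the outer end of the gene's span by a few bases.
Cnmd: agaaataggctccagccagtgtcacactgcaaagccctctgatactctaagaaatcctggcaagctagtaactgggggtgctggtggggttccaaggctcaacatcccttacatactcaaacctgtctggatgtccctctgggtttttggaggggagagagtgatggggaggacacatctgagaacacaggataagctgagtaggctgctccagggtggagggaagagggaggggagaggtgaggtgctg
Col10a1: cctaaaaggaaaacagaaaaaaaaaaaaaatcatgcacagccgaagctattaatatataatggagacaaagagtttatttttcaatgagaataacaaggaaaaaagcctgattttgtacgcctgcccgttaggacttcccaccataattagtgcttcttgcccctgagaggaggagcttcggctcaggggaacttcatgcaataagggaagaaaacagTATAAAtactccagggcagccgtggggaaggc
Sox5: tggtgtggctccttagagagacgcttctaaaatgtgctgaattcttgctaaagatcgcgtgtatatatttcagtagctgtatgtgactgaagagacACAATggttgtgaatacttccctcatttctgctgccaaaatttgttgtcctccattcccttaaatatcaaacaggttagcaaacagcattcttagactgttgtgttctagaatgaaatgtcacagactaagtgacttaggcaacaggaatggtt
Chad: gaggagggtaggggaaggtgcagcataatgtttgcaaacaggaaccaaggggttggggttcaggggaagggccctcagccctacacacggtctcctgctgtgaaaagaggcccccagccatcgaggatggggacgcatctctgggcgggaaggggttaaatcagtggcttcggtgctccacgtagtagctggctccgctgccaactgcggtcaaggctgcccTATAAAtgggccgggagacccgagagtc

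The SOX core in the form ACAAT occurred on either strand in 27.7% of 32851 windows of that length in the RefSeq table. The 8 genes with an entry there have 13 windows, and 4 of these held it. They belong to 2 genes, Sox5 and Sox6, and in the Sox5 window it begins 154 bases before that start. The Sox6 windows also lie inside the gene's span. The longer letters ACAATG, which contain the core, occurred in 10.7% of windows, and in 3 of the 13, in the same 2 genes. The letters TATAAA, searched on the gene's strand alone, occurred in 7.59% of windows and in 3 of the 13, from 3 of the 8 genes. They lay 32 bases before the start in Col10a1 and 28 in Chad, and occurred in 1 of the 6 Sox6 windows. Such matches describe the letters in these windows and say nothing of binding.

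Col2a1 and Acan, the genes of type II collagen and aggrecan, are classical SOX9 targets, and each of the 10 genes was set against both across arrays, 20 relations in all, a comparison added after the data were seen. For Pearson's r 7 had an adjusted permutation p under 0.05, and 5 for Spearman's rho. Acan followed Cnmd (r = 0.88, permutation p = 0.00109, adjusted 0.0181, and rho = 0.85, permutation p = 0.00308, adjusted 0.0266) and Chad (r = 0.78, permutation p = 0.00724, adjusted 0.0207, and rho = 0.84, permutation p = 0.00399, adjusted 0.0266). Without the 2 arrays farthest from the member's median these r were 0.80 and 0.63, and after quantile normalization 0.74 and 0.76. They were 0.90 and 0.57 without vehicle replicates 3 and 5. Cnmd had r above 0.8 with 0.371% of 6742 genes and Chad with 7.51%, so a high r with Chad was shared by many genes. Col10a1 had r = 0.85 with Acan (permutation p = 0.00314, adjusted 0.0181) but rho = 0.68 (permutation p = 0.0349, adjusted 0.0968). That r was 0.52 without maslinic acid replicate 2 and vehicle replicate 5, the arrays farthest from the Col10a1 median, but 0.93 without vehicle replicates 3 and 5. Col10a1 with Col2a1 gave r = 0.83 and rho = 0.66 (adjusted permutation p = 0.0181 and 0.0968). Here r was 0.51 without maslinic acid replicate 2 and vehicle replicate 5, and 0.89 without vehicle replicates 3 and 5. Col2a1 also followed Cnmd (r = 0.80 and rho = 0.84, adjusted permutation p = 0.0207 and 0.0266) and Chad (r = 0.82 and rho = 0.82, adjusted permutation p = 0.0181 and 0.0296). Without the 2 arrays farthest from the median of Cnmd or Chad these r were 0.66 and 0.58. They were 0.81 and 0.65 without vehicle replicates 3 and 5.

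Sox9 followed Acan at r = 0.78 (permutation p = 0.00651, adjusted 0.0207) and rho = 0.79 (permutation p = 0.00869, adjusted 0.0348), with 0.73 without maslinic acid replicates 3 and 5. With Col2a1 it reached r = 0.69 (permutation p = 0.0245, adjusted 0.055) and rho = 0.65 (permutation p = 0.0492, adjusted 0.0985), with 0.71 without those 2 arrays. Both Sox9 relations had a lower r under other scalings. After quantile normalization the r was 0.22 for Acan and 0.08 for Col2a1, and with centred arrays 0.28 and 0.13. The centred r cannot decide on these relations, since the medians subtracted moved over 272 steps and Sox9 over 149. The quantile-normalized r cannot decide on them either, since how far that scaling moved Sox9 was not set against its range. Ucma, which had the largest g, followed neither (r = 0.32 with Acan and 0.26 with Col2a1, rho = 0.48 and 0.35, adjusted permutation p = 0.488 and 0.515 for r and 0.253 and 0.388 for rho, and r = 0.12 and 0.24 without maslinic acid replicate 5 and vehicle replicate 3).

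Col2a1 stood at 95709, 55706, 68795, 90872 and 0 steps in the vehicle arrays and at 125687, 27893, 107382, 87499 and 89762 in the maslinic acid arrays. Acan stood at 22092, 15434, 15472, 21655 and 0 steps in vehicle and at 31397, 3300, 23331, 21741 and 29764 with maslinic acid. In both genes vehicle replicate 5 was lowest, maslinic acid replicate 2 next and maslinic acid replicate 1 highest, so each group held a low array. Of the 10 genes, maslinic acid replicate 1 was the highest array in 4 (Sox6, Snorc, Cnmd and Col10a1) and maslinic acid replicate 2 the lowest in 3 (Cnmd, Col10a1 and Matn1), while it was the highest for Cytl1. Maslinic acid replicate 4 was also the lowest in 3 (Sox5, Snorc and Cytl1), and maslinic acid replicate 5 was the highest in 2 (Sox9 and Ucma) and had the highest mean over the 10 genes, 1.01 SD, beside 0.92 SD for replicate 1. Among genes of 10 distinct values, those most like Col10a1 over the 10 arrays were Col9a3 (r = 0.938), which encodes a chain of type IX collagen of cartilage, Matn3 (0.938), the cartilage protein matrilin-3, Tyms (0.923), thymidylate synthase of DNA synthesis, and Col9a1 (0.917), another type IX collagen chain. They were picked as the highest of 6742 genes, so the values are a description.

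**Figure D5:**
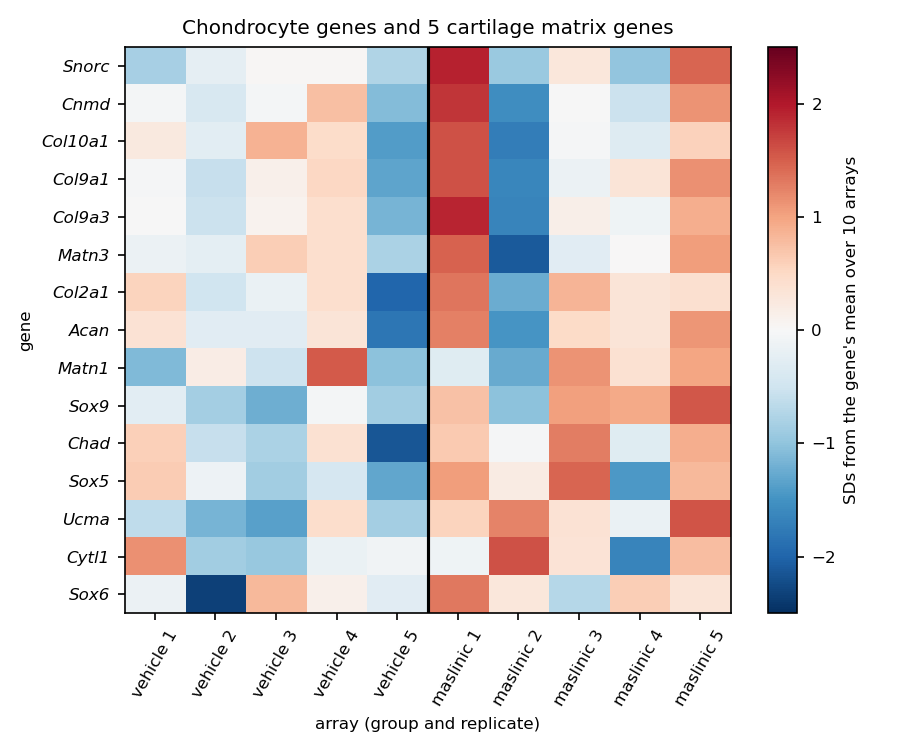
Values of the 10 genes and of Col9a1, Col9a3, Matn3, Col2a1 and Acan in each array, in SDs from the gene's own mean over 10 arrays, vehicle left and maslinic acid right of the line. Maslinic acid replicate 1 is high and maslinic acid replicate 2 and vehicle replicate 5 are low in the top 8 rows, which are Snorc, Cnmd, Col10a1, Col9a1, Col9a3, Matn3, Col2a1 and Acan.

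Other genes of the pathway were read from lists chosen by function, and no list was tested as a whole. The shares to read them against are 47.9% of all genes with a higher mean and 4.29% higher at an unadjusted p under 0.05, or 60.2% and 6.7% among genes with 10 distinct values. Of 15 cartilage matrix genes 14 had higher means with maslinic acid, none reached an unadjusted p under 0.05, and the median g was 0.55. Col2a1 was at 0.61 (95% CI -0.56 to 1.75) and Acan at 0.62 (-0.55 to 1.76), and the members of lowest p were Cilp2, a cartilage intermediate layer protein (1.15, -0.13 to 2.37), and Prelp, a leucine-rich matrix protein (1.07, -0.19 to 2.28). Of 23 measured genes of chondrocyte signals and regulators 18 had higher means (median g = 0.51), and 2 reached an unadjusted p under 0.05, both higher. These were the transcription factor Zbtb20 (g = 2.06, exact permutation p = 0.0159, limma adjusted p = 0.466) and Arid5b, a chromatin factor that works with SOX9 in mice (1.34, exact permutation p = 0.0476, limma adjusted p = 0.537). Arid5b differed by only 28.2 steps and ranged over 74, less than the 272 of the array medians. Over all genes 8.83% reached that p in either direction and 4.29% were higher at it, or 6.7% among genes with 10 distinct values. Of 14 other chondrocyte-enriched genes 10 had higher means and 4 reached that p, led by Sec23a, a coat protein of secretory vesicles whose loss harms cartilage in zebrafish (g = 3.02, limma adjusted p = 0.418), though it differed by only 15.4 steps, and Scin, the actin-severing protein scinderin (1.53, limma adjusted p = 0.496). Of 8 measured genes of hypertrophic and terminal chondrocytes 7 had higher means (median g = 1.02), with Ibsp, bone sialoprotein, at 1.46 (0.11 to 2.75) and Alpl, the mineralisation enzyme alkaline phosphatase, at 1.18 (-0.11 to 2.40). Both are also made by osteoblasts.

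Of 16 other SOX family genes 8 had higher and 6 lower means (median g = 0.13). Only Sox10, a factor of Schwann cells, reached an unadjusted p under 0.05, lower at g = -1.79, on a difference of 1.6 steps over 5 distinct values. Sox11 followed at -1.45 on 3 distinct values. Both differences are close to the last decimal of the values.

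Markers of neighbouring tissues are given beside these values, and 0 genes passed adjustment in any of the lists. The share of all genes with a higher mean was 47.9%, and it was 60.2% among genes with 10 distinct values. Mean scores of marker lists, in SDs over the arrays, ran for osteoblast and bone genes from -1.29 to 0.02 in vehicle and from -0.03 to 0.92 with maslinic acid (8 of 8 measured means higher). For osteoclasts they ran from -1.53 to 0.44 and from -0.06 to 1.11 (8 of 8), for synovial fibroblasts from -1.14 to 0.39 and from -0.04 to 0.94 (10 of 10), and for tendon from -0.72 to 0.68 and from -0.85 to 1.12 (5 of 7). Macrophage scores ran from -0.88 to 0.36 and from -0.35 to 0.51 (5 of 8). Muscle scores ran from -1.88 to 0.67 and from -0.73 to 0.93 (10 of 10). Neutrophil scores went the other way, from -0.12 to 1.31 in vehicle and from -0.76 to -0.13 with maslinic acid, with 0 of 7 means higher. Among these genes S100a8 and S100a9 had only 2 distinct values, and S100a8 ranged over 1 step, yet both count fully in the score. The scores of the groups overlapped in each of these lists except that of neutrophils, where the closest were -0.12 in vehicle and -0.13 with maslinic acid. How often the scores of other gene lists would not overlap was not computed. The part of these marker levels in the values of Sox9, Ucma and the other chondrocyte genes was not tested.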

How the data were processed

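The deposited values, 1 per probe set and array, are called a score here, since their scale is not stated: the submitters' processing notes name R 3.2.1, and how background, normalization and probe summary were handled is not stated in the labels used here. Per the labels' protocols, 100 ng of total RNA per mouse was amplified to biotin-labelled cRNA. Groups and replicate numbers came from the sample titles, and the labels give no batch. In the platform annotation 34202 probe sets named 1 gene, 931 several and 4860 none; 34028 were found in the RefSeq gene table by Entrez identifier, which changed 0 symbols. No 2 arrays held the same values. No sample was left out of the main test.

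Maslinic acid was tested against vehicle with limma 3.58.1 in R 4.3.3 (lmFit, then eBayes) on all 39993 probe sets, two-sided, with Benjamini-Hochberg adjustment over all of them and a threshold of 0.05. The test was run on the scores as deposited. The confidence intervals of g come from the noncentral t distribution. Exact permutation tests used all assignments, with a smallest p of 0.00794, and correlations 100000 permutations. The other software was scipy 1.17.1, numpy 2.4.6, pandas 2.3.3 and matplotlib 3.10.9 under Python 3.11.15. The limma step was tested on simulated data. The genes, the lists and the rules were chosen with earlier results of these data known. Named beside the 10 genes are the 2 members of lowest p in each pathway list, Col2a1, Acan and Prg4, and the 4 genes most like Sox9, Ucma and Col10a1. Marker lists are given by counts and scores for the tissues next to cartilage, for macrophages, for muscle and for neutrophils. The level or distinct values are given for a few of their members. Alternatives were a replicate block, quantile normalization, centring, filters on level and on distinct values, a trended and robust prior, array weights, other choices of probe set, the exact Wilcoxon test, and arrays left out.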

Additional observations from a re-analysis of the deposited data

How the results depend on the processing

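No gene of the 10 had an adjusted p under 0.05 in limma under any limma alternative run; the filter on level left 8 of them, without Sox5 and Matn1. Over all probe sets, 0 passed as deposited (3617 at an unadjusted p under 0.05, and 0 and 2741 in the exact Wilcoxon test), 8 after quantile normalization and 1 without maslinic acid replicate 1 (0 to 1 over single arrays left out). The count of the 10 at an unadjusted p under 0.05, 2 as deposited, was 0 after quantile normalization and without vehicle replicates 3 and 5, and 1 with centred arrays and in the exact Wilcoxon test. It was 1 to 3 with single arrays left out: 3 without vehicle replicate 1 (Chad joined), and 1, Ucma, without vehicle replicate 3, maslinic acid replicate 3 or maslinic acid replicate 5. Without maslinic acid replicate 4 it was 2 but held Sox5 and Ucma, not Sox9. By exact permutation 2 of the 10 had p under 0.05. This count fell to 0 without vehicle replicates 3 and 5 together, where the lowest exact permutation p of the 10 was 0.107, for Ucma. The share of all genes under 0.05 by exact permutation was not computed, with or without these arrays. Neither count can therefore be set against other genes, and whether the fall is particular to the 10 was not tested.

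The direction turned for Sox9 (g = -0.10), Col10a1 (-0.03) and Matn1 (-0.21) after quantile normalization, for Sox5 (-0.02) and Matn1 (-0.05) with centred arrays, and for Col10a1 (-0.11) and Matn1 (-0.01) without vehicle replicates 3 and 5; in the exact Wilcoxon test Cliff's delta of Col10a1 was -0.04. The cause was not tested. With single arrays left out Col10a1 ran from -0.34 to 0.49 and Cnmd from -0.08 to 0.79, and the 10 means were higher in 8 to 10 genes. Col10a1 was at -0.02 without vehicle replicate 2, -0.28 without vehicle replicate 5, -0.34 without maslinic acid replicate 1 and -0.08 without maslinic acid replicate 5. The median r over the 45 pairs ran from 0.36 to 0.51 with single arrays left out and was 0.34, 0.30 and 0.38 after quantile normalization, with centred arrays and without vehicle replicates 3 and 5.

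The labels do not say whether the replicate numbers pair the arrays. Same-numbered arrays correlated from -0.34 to 0.36, and 2 of 5 pairs were each other's best match, which does not settle it. With the replicate number as a block, Sox9 was at 1.39 and Ucma at 1.29 and 2 genes kept an unadjusted p under 0.05, Sox9 and Ucma, with 0 probe sets passing.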

Other observations

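The genes whose values were most like those of Sox9 over the 10 arrays, among 6742 others of 10 distinct values, were Loxl4 (r = 0.933), a lysyl oxidase that crosslinks collagen, Peg3 (0.932), an imprinted zinc finger gene, Ppp1r1b (0.902), a phosphatase inhibitor, and Thra (0.891), a thyroid hormone receptor. Those most like Ucma were Cth (0.901), which makes cysteine, Lama2 (0.900), a laminin chain of basement membranes of muscle and nerve, Pcca (0.887), a mitochondrial carboxylase subunit, and Rnf128 (0.884), a ubiquitin ligase. All were picked as the highest of many, and the share of genes with r above 0.8 was 0.89% for Sox9, 0.756% for Ucma, 1.68% for Col10a1 and 7.51% for Chad.

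The vehicle arrays had the larger SD in 81.7% of genes with 10 distinct values, but in only 4 of the 10 chondrocyte genes. For Snorc the SD was 266 steps in vehicle and 845 with maslinic acid, and for Cnmd 1346 and 2683. This difference in spread was not tested.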
